A study of Mus musculus with 8 samples.

Results

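Differentiated cerebellar granule neurons (CGNs) of the paraflocculus/flocculus (PF/F) were followed here in nuclei of P5.5 mice. The members were the 18286 nuclei that the authors annotated as differentiated granule neurons, matched by library and barcode to the raw count matrices. They made up 37.9% of the 48237 annotated PF/F nuclei and were the most numerous of 16 annotated types. The nearest type by name was the granule neuron progenitors (GNPs), with 9404 nuclei. The other annotated types include a further 2 that are not reported here by name.

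CGNs are small glutamatergic neurons that receive mossy fiber input and send parallel fibers to Purkinje cells. They are born after birth in the mouse, in the external granular layer, where Sonic hedgehog from Purkinje cells drives the division of GNPs. After leaving the cell cycle a CGN extends its axons, migrates inward along glial fibers and builds synapses in the internal granular layer, so cells of very different maturity are present together in the first postnatal week. In the flocculus and paraflocculus these neurons carry vestibular and visual signals used to adapt eye movements.

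The series compared wild-type (WT) mice with Tbx1+/- littermates, which lack one copy of the T-box transcription factor gene Tbx1. Single-nucleus RNA sequencing was made of the petrous bone and of the PF/F, and only the PF/F is described here. Each library pooled 5 mice, and each genotype had 1 library in each of 2 batches of animals, so that the 4 libraries are the replicates. The labels number the libraries of a genotype as replicates, and the replicate number was taken here as the number of the batch, which the labels do not state. Where values of 4 libraries are listed, they stand in the order WT batch 1, Tbx1+/- batch 1, WT batch 2 and Tbx1+/- batch 2.

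The 4 libraries held 4422, 5297, 3562 and 5005 CGN nuclei. Their summed transcripts, counted as unique molecular identifiers (UMIs), came to 14360740, 15286028, 13978893 and 18883177. The median nucleus had 2572 to 3483 UMIs and 1530 to 1840 detected genes. Levels are given in CPM, that is UMIs of a gene per 1000000 UMIs summed over the nuclei of a type in a library. The batches differed more than the genotypes did. Mitochondrially encoded transcripts took 1.12, 1.01, 0.432 and 0.606% of UMIs and ribosomal protein transcripts 3.30, 3.21, 1.65 and 1.93%, both higher in the 2 batch 1 libraries. The median absolute log2 difference between batches was 0.194 in WT and 0.169 in Tbx1+/- over 16109 genes, against 0.101 between genotypes within either batch. The number of CGN barcodes shared by 2 libraries was 3 to 13.

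Tbx1 itself was at the limit of detection in CGNs, with 2, 1, 0 and 3 UMIs in the 4 libraries. A limit of 3 UMIs, set for a count of 0 and covering counting error only, corresponded to 0.159 to 0.215 CPM in these libraries. The genotype labels could therefore not be checked by Tbx1 in these nuclei, and no fold is given. GNPs held 1, 0, 0 and 0 Tbx1 UMIs.

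The label was checked first against the granule neuron markers Rbfox3, which encodes the neuronal nuclear protein NeuN, and Neurod1, a transcription factor of differentiating granule neurons. Rbfox3 (chr11:118489762-118911597 of GRCm38, minus strand) stood at 704, 765, 737 and 731 CPM in CGNs. In GNPs it stood at 524, 576, 568 and 588 CPM. Every CGN value lay above every GNP value, and CGNs were 1.24 to 1.34 times the GNPs of the same library. Mean Rbfox3 was 734 ± 25.2 CPM (SD, n = 4) in CGNs and 145 ± 34.4 CPM in immune cells. CGNs ranked highest of the 16 types for Rbfox3. Neurod1 (chr2:79452521-79456751, minus strand) was shared with the progenitors. Its values were 166, 175, 149.8 and 146 CPM in CGNs and 169.7, 183, 147 and 151 CPM in GNPs, and these overlapped. Neurod1 was lower in immune cells, at 75.8 ± 16.04 CPM, and in Purkinje cells, at 20.8 ± 7.82 CPM. Because the types were made by clustering nuclei on their expression, all levels between types are descriptions without a test.

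**Figure D1:**
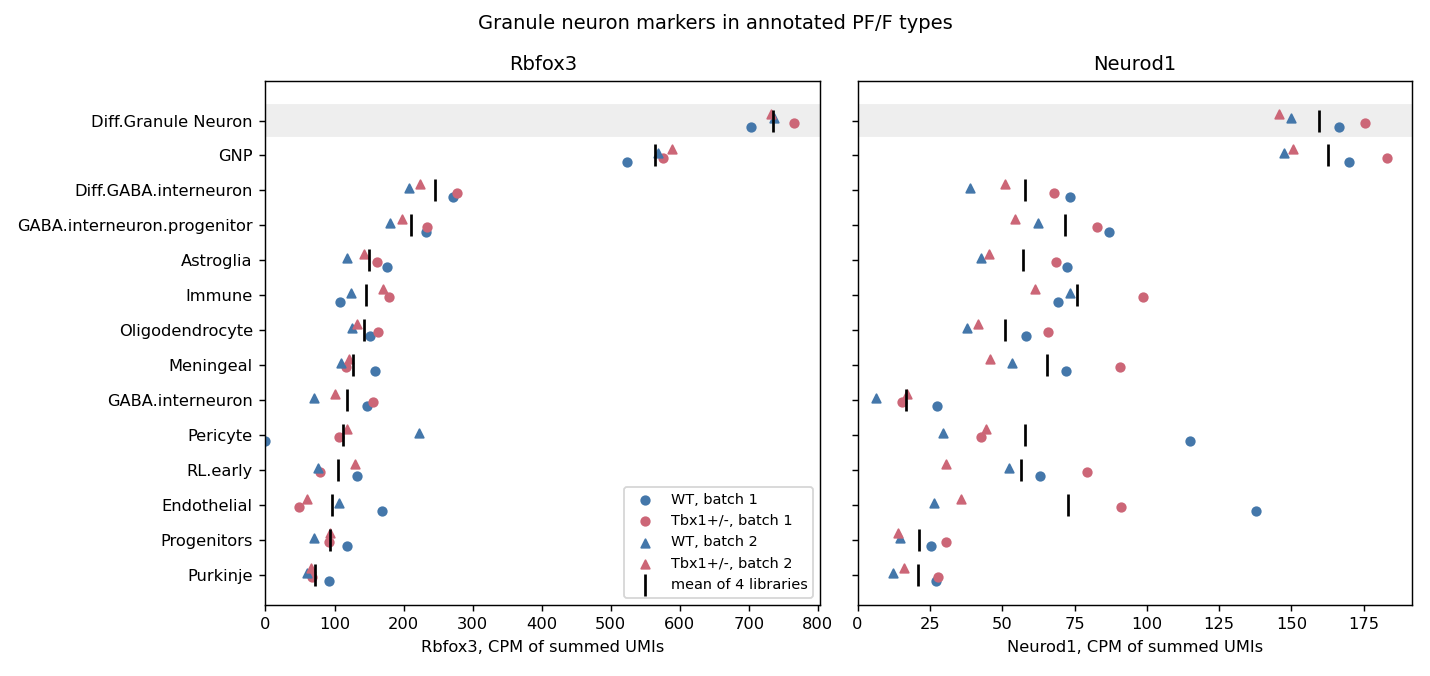
Neurod1 and Rbfox3 in CPM of summed UMIs (horizontal axes) in 14 annotated PF/F types, with 1 point per library and a bar for the mean of the 4 libraries. Rbfox3 was highest in differentiated granule neurons, at 704 to 765 CPM, whereas Neurod1 stood at 146 to 175 CPM in these and at 147 to 183 CPM in GNPs.

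Counted by nuclei, 84.1% of CGN nuclei and 67.0% of GNP nuclei held at least 1 Rbfox3 UMI. Immune nuclei, which should not make Rbfox3, held one in 23.4% of cases. Median depth was 2973 UMIs in CGNs, 2555 in GNPs and 2660 in immune nuclei. After each nucleus was thinned to 1000 UMIs, the shares were 50.1%, 38.8% and 9.05%. For Neurod1 the shares were 39.2%, 34.3% and 18.2%, and 15.5%, 14.8% and 6.47% after thinning. Both markers were thus found in more CGN than immune nuclei at equal depth. Immune nuclei give the background of these counts, which are not corrected for free RNA.

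The genes that set CGNs apart from 12 other types (GNPs and the 2 types not reported by name left out) were ranked by the smallest log2 ratio found in any of the 4 libraries. Among those with a known role were Syt6 (169, 163, 209 and 201 CPM), a synaptotagmin, Ntf3 (98.6, 102, 107 and 101 CPM), which encodes the neurotrophin NT-3, and Cadps2 (1457, 1570.1, 1849.5 and 1977 CPM), which encodes a protein of dense-core vesicle release. Syt6 was at 21.9, Ntf3 at 12.5 and Cadps2 at 226 CPM on average in the 12 other types, and their smallest log2 ratios were 2.82, 2.75 and 2.65. Potassium channel genes were also among the 15 leading genes, namely Kcnq5, a subunit of the M-current channel, and Kcnj6, a G-protein-gated inward rectifier. Kcnq5 stood at 3529.7, 3703, 4282 and 4293 CPM against 618 CPM in the other types. Reln, which encodes the secreted glycoprotein reelin, stood at 1572, 1665, 1943 and 1926 CPM against 272 CPM. The first gene of the ranking was the predicted gene Gm42397, with a smallest log2 ratio of 3.50, and 5 further predicted genes were among the 15. Gm42397 was higher still in 1 of the types left out, at a mean of 1108 CPM against 613 CPM in CGNs, and the same held for Gm36011 (178 against 76.6 CPM) and Gm27016 (496 against 329 CPM).

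The contrast with GNPs was ranked in the same way, and some genes, such as Syt6 and Galntl6, were among the 15 leading genes of both rankings. Galntl6 (chr8:57774052-58912640, minus strand), which encodes a glycosyltransferase-like protein, was at 5147, 5608, 6678 and 6999.6 CPM in CGNs and at 151 CPM on average in GNPs, a log2 ratio of at least 5.05 in every library. Nebl, which encodes the actin-associated protein nebulette, was at 879, 971, 1029 and 1048 CPM against 31.1 CPM. Kcnip4, an accessory subunit of A-type potassium channels, was at 4817, 4290.1, 6102 and 5780.4 CPM against 236 CPM. These are genes of low but measurable level in GNPs, and the CGN values lay far above all GNP values. Genes of synaptic adhesion were also on the list, with smallest log2 ratios of 4.31 for Lrrtm4 and 4.20 for Lrrtm3. Both encode leucine-rich repeat proteins of the postsynaptic membrane. The alpha-catenin gene Ctnna3 was on the list as well, at 4.55. The 15 leading genes together took 19042, 18962, 24178 and 23709 CPM in CGNs and 792, 667, 864 and 728 CPM in GNPs. Of 3530 genes at 50 CPM or more in CGNs of all 4 libraries, 463 were at least 2-fold and 240 at least 4-fold above GNPs in each library.

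In the other direction, 4246 genes were at 50 CPM or more in GNPs of all 4 libraries. Of these, 609 were at least 2-fold and 207 at least 4-fold above CGNs. Among the 15 leading ones were Neil3, a DNA glycosylase gene (smallest log2 ratio 3.55), Kif14, a mitotic kinesin gene (3.44), Cep55, which acts at abscission (3.42), and the formin gene Diaph3 (3.35). Fat3, which encodes an atypical cadherin, was on the same list at 3.32, as were the proteoglycan gene Ogn at 3.34 and the predicted gene Gm12082 at 3.52.

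Gene lists were then compared by role, each as the sum of its members in CPM, with the ratio taken within each library. The lists overlap in a few genes. The shares of all genes that were higher or lower in CGNs in all 4 libraries were not counted. The member counts below stand without that background. The largest ratio to GNPs among these lists was that of 24 voltage-gated sodium and potassium channel genes, at 3.85 to 4.08 times the GNP sum, with 23 members higher in CGNs in all 4 libraries and 1 lower. Kcnd2, the pore subunit of the A-type channel that delays firing in granule cells, was at 4220.3, 4442, 5486 and 5655 CPM against a GNP mean of 736 CPM. Kcnh1, an ether-a-go-go potassium channel gene, was at 96.7, 107, 107 and 109 CPM against 5.26 CPM. CGNs were the highest of the 16 types for 8 of the 24 channel genes.

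The 26 genes of transmitter release and presynaptic organisation followed, at 3.18 to 3.34 times the GNP sum, with 23 members higher in all 4 libraries. Syt1, the calcium sensor of fast release, was at 2158, 2169, 2709 and 2711 CPM against 476 CPM. Cacna1a, which encodes the pore of P/Q-type calcium channels, was at 599, 614, 604 and 590.2 CPM against 72.5 CPM. The vesicular glutamate transporters differed. Slc17a6, which encodes VGLUT2 and is typical of young granule neurons, was at 263, 272, 284 and 275 CPM in CGNs and 209, 206, 245 and 235 CPM in GNPs. Slc17a7, which encodes VGLUT1 of mature parallel fibers, was at 14.8, 17.7, 20.9 and 20.2 CPM against 4.25 CPM in GNPs. The step from GNPs to CGNs was therefore 1.16 to 1.32 times for Slc17a6 and 3.39 to 6.29 times for Slc17a7.

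Glutamate receptor genes summed to 2.95 to 3.12 times the GNP level, with 18 of 23 members higher and 4 lower in all 4 libraries. Grin2b, the juvenile subunit of NMDA receptors, was at 1454, 1516, 1506 and 1479 CPM, which was 10.8 to 15.0 times GNPs. Grin1, the obligatory NMDA subunit, was 12.3 to 14.6 times GNPs. Grm4, which encodes a metabotropic receptor of parallel fiber terminals, was at 87.9, 91.2, 85.6 and 77.9 CPM and 15.3 to 25.0 times GNPs. Not all receptors followed. Gria1, an AMPA receptor subunit, was at 10.3, 12.8, 8.87 and 9.32 CPM, below its GNP mean of 15.2 CPM, and CGNs ranked lowest of the 16 types for it. Grin2c, the NMDA subunit of mature granule cells, did follow, at 28.5, 27.5, 34.1 and 31.2 CPM and 1.86 to 2.92 times GNPs.

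Genes of GABA-A receptors and chloride transport summed to 2.66 to 2.82 times GNPs, with 13 of 15 members higher in all 4 libraries. Slc12a5, which encodes the chloride extruder KCC2, was at 52.1, 47.4, 42.1 and 43.1 CPM against 10.4 CPM in GNPs. Slc12a2, which encodes the chloride importer NKCC1, was at 70.4, 71.7, 80.3 and 79.2 CPM against 95.5 CPM. Slc12a5 was thus higher and Slc12a2 lower in CGNs than in the progenitor mean. Gabra6, the receptor subunit that marks mature granule cells (chr11:42306437-42321072, minus strand), was barely seen, at 1.88, 3.07, 2.65 and 2.38 CPM. In every library this was 4.03 to 8.15 times GNPs. Only 0.128% of the 9404 GNP nuclei held a Gabra6 UMI, so these ratios rest on few molecules. A Gabra6 UMI was found in 0.749% of CGN nuclei (0.228% thinned to 1000 UMIs) and in 0.185% of oligodendrocyte nuclei (0.0279% thinned). Among the 385 immune nuclei the share was 0.779% (0.124% thinned), so that the CGN share was above the background given by oligodendrocytes but not, unthinned, above that of the few immune nuclei. For Grin2c the CGN share was 8.21% (2.58% thinned), against 1.42% (0.380% thinned) in oligodendrocytes, whose median depth was 3494 UMIs. The 16 genes of mature granule neurons together were 2.67 to 2.85 times GNPs, and 16 of 16 were higher in all 4 libraries.

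**Figure D2:**
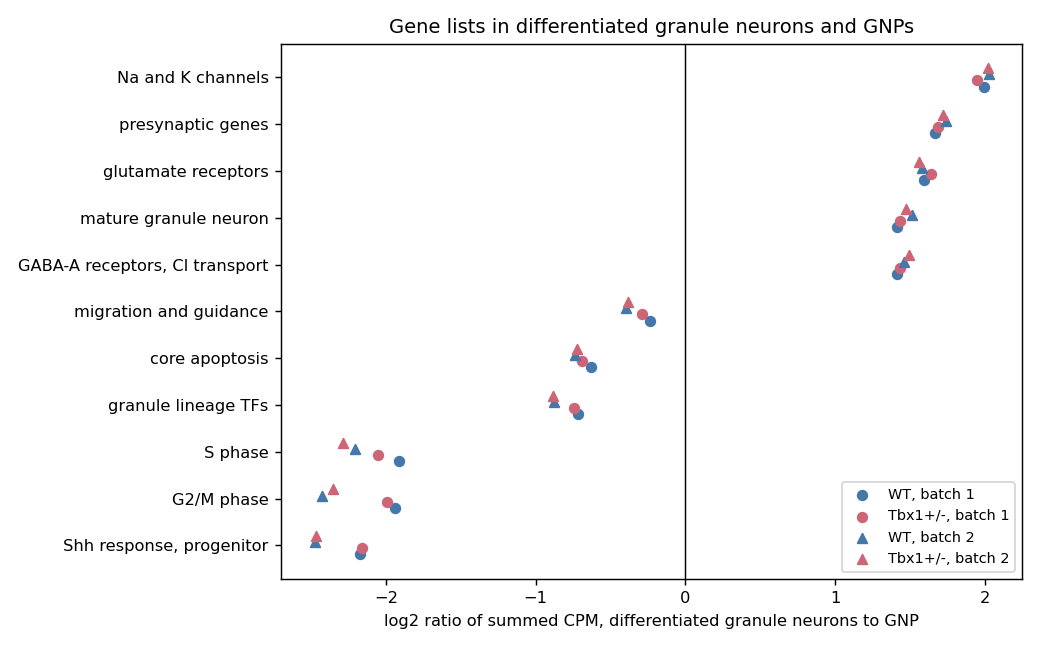
Log2 ratio of the summed CPM of each gene list in differentiated granule neurons to that in GNPs of the same library (horizontal axis), with 1 point per library and lists in rows. Channel, presynaptic, receptor and mature granule neuron genes lie right of 0 and progenitor, S phase and G2/M genes left of 0 in every library.

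Transcription factors of the granule lineage went the other way as a sum, with GNPs at 1.65 to 1.85 times CGNs. Of 24 members, 6 were higher in CGNs and 17 lower in all 4 libraries. Nuclear factor I genes, which act in granule neuron differentiation, were well expressed in CGNs but higher still in GNPs. Nfia was at 1328, 1453, 1577 and 1542 CPM against 4187 CPM, and Nfib at 2207, 2435, 2551 and 2505 CPM against 5053 CPM. Barhl1, a homeobox gene of the lineage, was at 50.9, 51.4, 44.3 and 43.6 CPM against 173 CPM. Atoh1, the proneural factor of dividing progenitors, was at 3.06, 2.94, 1.72 and 1.22 CPM against 15.2 CPM. Zic1, a zinc finger gene kept in granule neurons, was at 568, 587, 462 and 445 CPM in CGNs and 548, 573, 447 and 436 CPM in GNPs, or 1.02 to 1.04 times GNPs within a library.

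Genes of the Sonic hedgehog response and progenitor division were lower in CGNs without exception, 16 of 16 in all 4 libraries, and GNPs stood at 4.46 to 5.56 times CGNs. Gli2, a transcriptional effector of hedgehog signaling, was at 61.6, 63.7, 52.2 and 51.6 CPM against 535 CPM. All 42 S phase genes were lower in CGNs, with GNPs at 3.76 to 4.89 times CGNs, and all 52 G2/M genes, at 3.85 to 5.39 times. Top2a, a topoisomerase gene of dividing cells, kept a level of 95.4, 104, 45.5 and 48.3 CPM in CGNs, higher in the batch 1 libraries. The same batch order was seen in the G2/M sum (1990.4, 1958, 1305 and 1376 CPM). Astroglia, Purkinje cell and meningeal markers in CGNs were also higher in batch 1, and their part in the cell cycle values was not tested. Core apoptosis genes summed to less in CGNs, with 21 of 27 lower and 1 higher in all 4 libraries.

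Adhesion and guidance genes were divided. Of 30 members, 20 were higher and 9 lower in CGNs in all 4 libraries, although the sum was lower in CGNs (0.759 to 0.847 times GNPs). In GNPs most of the sum came from Dcc, a netrin receptor gene, which was at 14728 CPM there and at 2297, 2452, 2877 and 2737 CPM in CGNs. Unc5c, another netrin receptor gene, was higher in CGNs, at 4709.6, 4726, 5980.1 and 5733 CPM against 1844 CPM. Cntn1, a contactin gene of growing axons, was at 739, 746, 853 and 857 CPM against 156 CPM. Pard3, a polarity gene, was lower, at 58.3, 57.4, 55.1 and 52.3 CPM against 468 CPM.

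CGNs were not uniform. On the authors' deposited UMAP, a map that places nuclei of like expression together, they formed a stem that joined a middle part, from which a left arm and an upper arm extended. The map was divided by 3 straight cuts chosen after the map had been seen, so the regions are ranges and not cell types, and what follows is a description. The stem held 4373 nuclei (23.9%), the middle 5573 (30.5%), the left arm 4962 (27.1%) and the upper arm 3378 (18.5%). Within 0.5 map units of a cut lay 537, 1364, 679 and 658 of these. Median UMIs per nucleus were 2304, 2896, 3341 and 3672, which stands beside every comparison of regions.

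The stem had the highest levels of lineage transcription factors and of the Sonic hedgehog list. Neurod1 was at 252 to 309.7 CPM there over the 4 libraries, at 158 to 199 CPM in the middle and at 86.8 to 113 CPM in the upper arm. Cntn2, which encodes the contactin TAG-1 of young, premigratory granule neurons, was at 359.6 to 459 CPM in the stem, 36.6 to 52.1 CPM in the left arm and 27.0 to 29.7 CPM in the upper arm. Nfia went from 2983 to 3855 CPM in the stem to 514 to 651 CPM in the upper arm, and Dcc from 6728 to 10378 CPM to 813 to 1224 CPM. In all of these the libraries of the stem lay above those of both arms without overlap. Lineage transcription factors summed to 2.13 to 2.68 times the left arm and 2.39 to 3.03 times the upper arm, and Sonic hedgehog genes to 2.61 to 3.80 times the upper arm. Ebf3, a helix-loop-helix factor gene (741 to 892 CPM), and Cntn2 were among the genes that set the stem furthest from both arms. Some markers of other types were also higher in the stem, and immune markers were lower, with the left arm at 1.39 to 1.84 and the upper arm at 1.22 to 1.77 times the stem. Oligodendrocyte markers were 3.72 to 4.56 times the left arm and 3.24 to 4.79 times the upper arm, Purkinje cell markers 1.58 to 2.06 and 1.73 to 2.08 times, and astroglia markers 1.47 to 1.62 and 1.61 to 1.86 times. The Purkinje cell list holds Foxp2, which in GNPs was at 8.20 to 13.0 times CGNs. Calb1, Car8 and Pcp2 of that list were at 1.01 to 1.29 times. The sum without Foxp2 was not counted by region. The mitochondrial share was 0.961% in the stem, 0.827% in the middle, 0.717% in the left arm and 0.667% in the upper arm, and the part of these differences in the stem's values was not tested. Rbfox3, in contrast, was at 756 to 839 CPM in the stem, 766 to 820.2 CPM in the middle, 627 to 673 CPM in the left arm and 646 to 754 CPM in the upper arm.

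Genes of electrical and synaptic function were lower in the stem than in the other regions, but the order of the others differed by list. Galntl6 was at 287 to 448 CPM in the stem, 3542 to 5003 CPM in the middle and 7946 to 11049.6 and 7238 to 9751 CPM in the left and upper arms. Slc12a5 was likewise lowest in the stem, at 6.82 to 17.0 CPM, against 61.9 to 67.7 CPM in the left arm and 70.5 to 88.9 CPM in the upper arm. Channel genes summed to 3.18 to 3.37 times the stem in the left arm and 2.29 to 2.53 times in the upper arm. Presynaptic genes stood at 1.72 to 1.76 times the stem in the middle, 1.83 to 1.93 times in the left arm and 2.14 to 2.31 times in the upper arm. Glutamate receptor genes stood at 1.81 to 1.86, 1.53 to 1.59 and 2.20 to 2.37 times the stem in the same regions, so that the middle lay above the left arm. The mature granule neuron list was highest in the middle, at 1.64 to 1.68 times the stem, against 1.38 to 1.41 times in the left arm and 1.25 to 1.39 times in the upper arm.

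Single genes differed between the arms, of which the following were chosen after their values were seen. As a sum, the adhesion and guidance list was at 16211 to 18493 CPM in the left arm and 15217 to 17157 CPM in the upper arm, and these ranges overlapped. Robo1, which encodes a receptor of the guidance protein Slit, was at 728 to 987 CPM in the upper arm and 65.3 to 90.7 CPM in the left arm. Epha5, an ephrin receptor gene, was at 275 to 425 and 22.8 to 36.9 CPM. The cell adhesion gene Lsamp had the opposite order, at 10526 to 13159.8 CPM in the left arm and 513 to 588 CPM in the upper arm. The ranges of the arms did not overlap for these 3 genes, which came with their choice. All 3 were among the leading genes by the smallest log2 ratio between the arms (3.38, 2.96 and 4.17). Grin2a, an NMDA subunit gene that joins Grin2b after birth, was at 234 to 270.4 CPM in the upper arm, 83.4 to 123 CPM in the left arm and 0.603 to 7.30 CPM in the stem. Grin2c was highest in the left arm, at 65.5 to 78.0 CPM, against 28.4 to 37.4 CPM in the upper arm.

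The left arm also held the higher levels of Etv1, an ETS factor gene of granule neuron maturation, at 111 to 133 CPM against 43.2 to 65.5 CPM in the upper arm. Kcnip4 was at 10358 to 13649.8 CPM in the left arm and 2191 to 3416 CPM in the upper arm, a wider gap than that of Galntl6. Gabra6 reached 4.20 to 8.91 CPM in the left arm and 0.253 to 1.65 CPM in the upper arm. In the middle, Cadps2 (2146 to 3021 CPM) and Plxna2, which encodes a semaphorin receptor subunit (474 to 566 CPM), had their highest levels. Ntf3 was highest in the upper arm, at 165 to 188 CPM, and lower in the left arm, at 49.95 to 59.2 CPM.

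**Figure D3:**
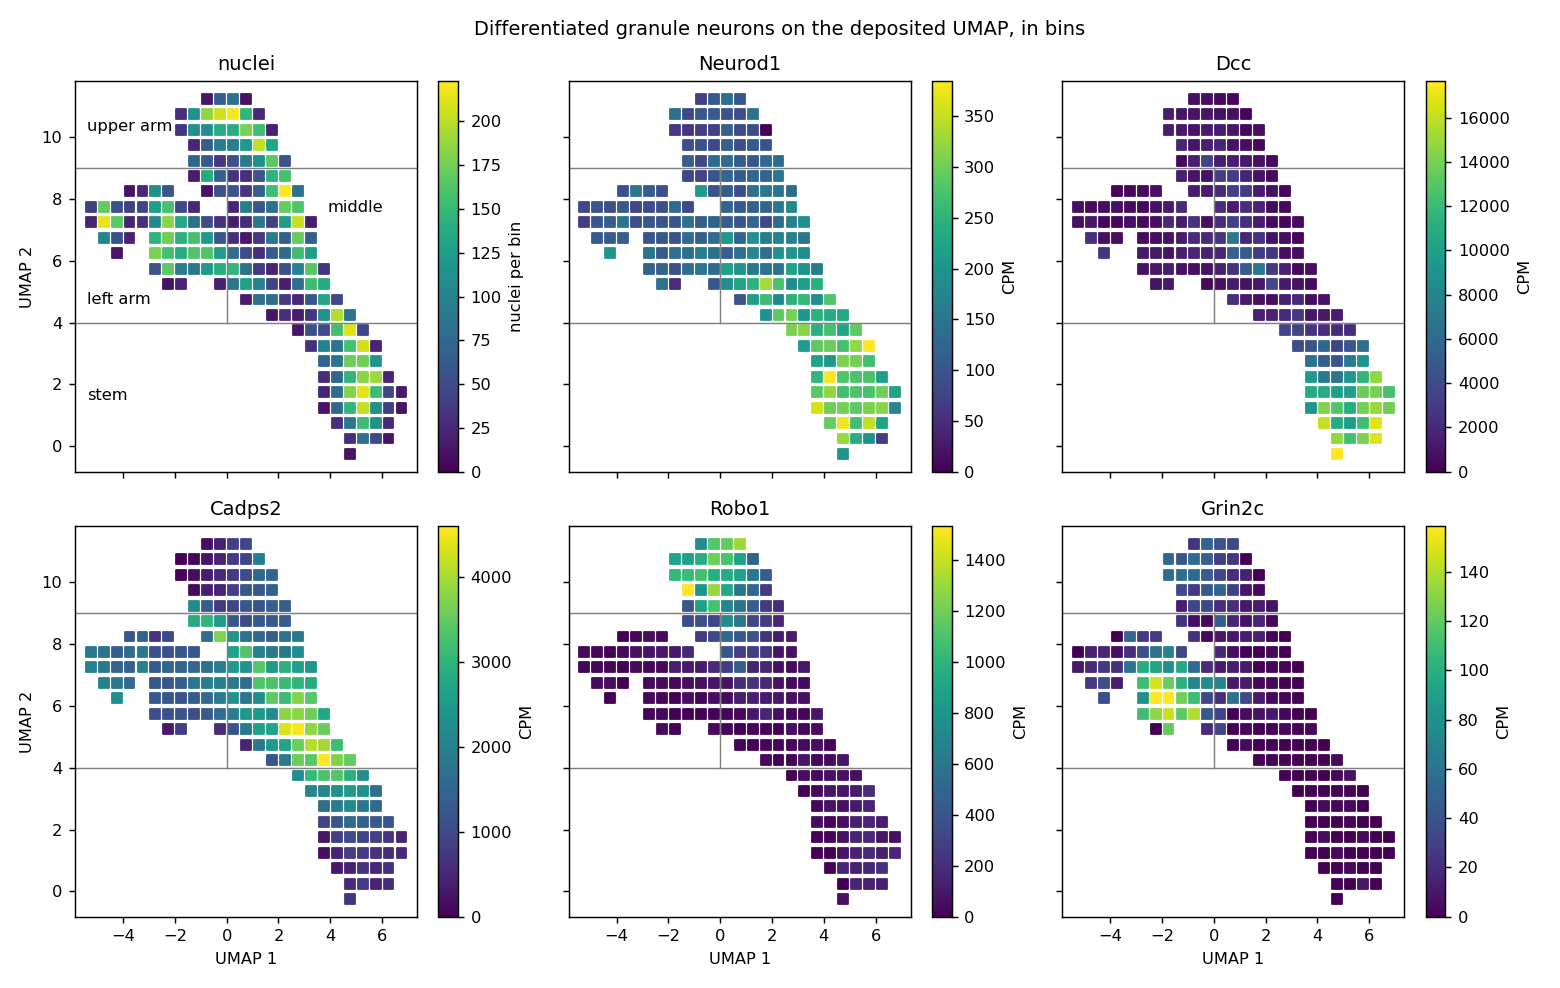
Differentiated granule neurons on the deposited UMAP in square bins of 0.5 map units (horizontal and vertical axes: the map's coordinates), colored by the number of nuclei or by the CPM of a gene over the nuclei of the bin; only bins of 10 or more nuclei are drawn, which hold 18086 nuclei. Lines mark the cuts between stem, middle, left arm and upper arm, whose nuclei numbered 4373, 5573, 4962 and 3378.

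Markers of other cell types in CGN nuclei were summed as a measure of free RNA or mixed droplets. Astroglia markers were at 1093, 948, 544 and 626 CPM, Purkinje cell markers at 259, 231, 107 and 127 CPM and meningeal markers at 71.7, 106, 26.4 and 39.6 CPM. All 3 were higher in batch 1 than in batch 2. In their own types these lists stood at 4833, 5670 and 4427 CPM. Fabp7 alone took 599 ± 235 CPM of the mean astroglia sum of 803 CPM in CGNs, and was at 1098 CPM in astroglia. Aqp4 was at 30.8 CPM in CGNs and 584 CPM in astroglia, and Gfap at 6.77 and 133 CPM. Shares of nuclei with astroglia markers were not counted without Fabp7. Immune markers were at 78.4 to 81.7 CPM in CGNs and 3864 CPM in immune cells, and oligodendrocyte markers at 81.1 to 99.3 CPM in CGNs and 2922 CPM in oligodendrocytes. Choroid plexus markers, which include the transthyretin gene Ttr, were at 81.7, 119.8, 72.8 and 257 CPM, highest in the batch 2 Tbx1+/- library. Interneuron markers were at 40.3 to 53.8 CPM, endothelial markers at 26.5 to 59.2 CPM, pericyte markers at 5.15 to 12.4 CPM and globin and other erythroid genes at 206 to 350.1 CPM. By nucleus, at least 3 UMIs of astroglia markers were found in 66.1, 49.3, 34.8 and 39.9% of CGN nuclei, of Purkinje cell markers in 6.85, 4.27, 2.19 and 2.80%, of erythroid genes in 4.12, 3.93, 6.40 and 10.8% and of choroid plexus markers in 0.814, 0.793, 0.702 and 9.71%. For oligodendrocyte, immune and meningeal markers the range over libraries was 0.868 to 1.80%, 0.701 to 1.21% and 0.140 to 1.00%. Immediate early genes, which respond to activity and to handling, summed to 127, 113, 91.0 and 102 CPM.

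The first genotype question was whether Tbx1+/- mice had fewer or more CGNs among PF/F nuclei. CGNs made up 36.1% (95% Wilson interval 35.2 to 36.9), 38.3% (37.5 to 39.1), 38.9% (37.9 to 39.9) and 38.5% (37.7 to 39.4) of annotated nuclei in the 4 libraries, the intervals covering counting error only. The WT values lay on both sides of the Tbx1+/- values. The log2 difference, Tbx1+/- over WT, was 0.03 (SE 0.17, 95% interval -0.44 to 0.51), which did not pass edgeR's quasi-likelihood test on nuclei per type (adjusted p = 0.976 over 16 types). GNPs per CGN were 0.535, 0.588, 0.495 and 0.432. By map region, the upper arm took 18.0%, 21.3%, 15.9% and 17.8% of CGN nuclei and the stem 22.7%, 24.3%, 25.1% and 23.8%.

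Expression was compared between the genotypes in CGN nuclei summed per library. No gene was called (0% of 17091 tested) by edgeR's quasi-likelihood test at a Benjamini-Hochberg adjusted p under 0.05 and a change above 1.5-fold, and DESeq2 also called 0. At an unadjusted p under 0.05, edgeR had 106 genes (0.62%), 54 higher and 52 lower in Tbx1+/-, and DESeq2 had 7. These fits had no batch term, so differences between batches counted as spread within a genotype. The median log2 fold change of all genes tested was 0.00. Medians of the lists were 0.08 for mature granule neuron genes, 0.07 for glutamate receptors, 0.06 for channels, 0.03 for presynaptic genes, 0.04 for adhesion and guidance genes and 0.02 for lineage transcription factors. For the Sonic hedgehog list the median was 0.04, for S phase genes -0.02, for G2/M genes 0.04, for apoptosis genes 0.00 and for GABA-A receptor and chloride genes -0.01. None of the members of these lists passed the test.

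**Figure D4:**
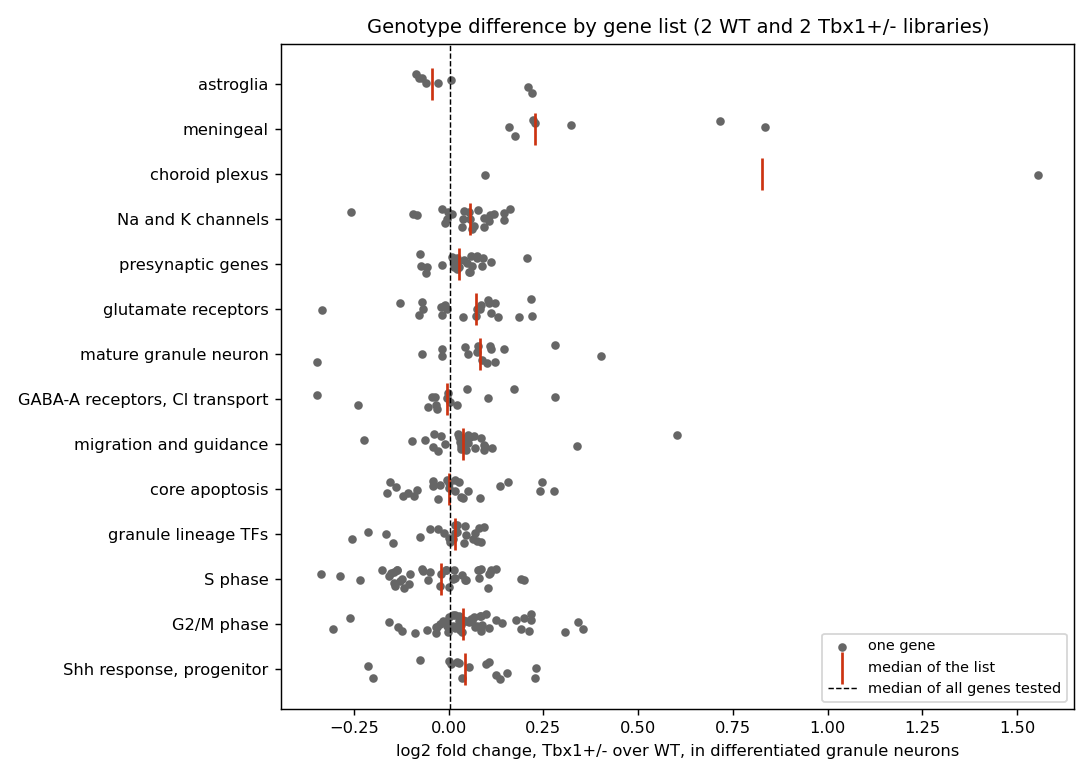
Log2 fold change of each listed gene in differentiated granule neurons, Tbx1+/- over WT (horizontal axis), with lists in rows, 1 point per gene tested and a dashed line at the median of all 17091 genes. List medians lay between -0.02 and 0.08 for the 11 lists on granule neuron biology, and no gene passed the test.

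Both markers of the type overlapped between the genotypes. The log2 fold change was 0.07 for Rbfox3 (SE 0.18, 95% interval -0.37 to 0.52) and 0.04 for Neurod1 (SE 0.15, 95% interval -0.32 to 0.41). For Galntl6 it was 0.11 (SE 0.34), and its levels followed the batch more than the genotype. Among the listed granule neuron genes, Dab1 alone had an unadjusted p under 0.05 in edgeR's quasi-likelihood test without a batch term. Dab1, the adaptor of reelin signaling, was at 24.3, 30.8, 25.9 and 31.8 CPM. Both Tbx1+/- values lay above both WT values, with a log2 fold change of 0.34 (SE 0.12), and it did not pass after adjustment. CGNs ranked 15 of the 16 types for Dab1, at 0.518 to 0.871 times GNPs, and Purkinje cells held 7480 CPM. The part of free Purkinje cell RNA in the Dab1 values was not tested. Bdnf, which encodes a neurotrophin that guides granule cell migration, was at 2.23, 2.94, 2.65 and 4.29 CPM, with a log2 fold change of 0.60 (SE 0.30), which was 0.26 without the batch 2 Tbx1+/- library.

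Ttr, the transthyretin gene made by choroid plexus, had the largest change among listed genes. It was at 61.6, 99.8, 56.2 and 239 CPM in CGNs, a log2 fold change of 1.56 (SE 0.40, 95% interval 0.58 to 2.54) with an adjusted p of 1.0 in edgeR's quasi-likelihood test. GNPs showed the same order, at 78.2, 108, 68.5 and 276 CPM. The summed choroid plexus markers did too, but Ttr is itself in that list. Of the 2 choroid plexus markers tested in CGNs, the other, Folr1, had a log2 fold change of 0.10. Folr1 differed from Ttr between the granule classes. In CGNs it was at 4.77 to 10.1 times GNPs, whereas Ttr was at 0.788 to 0.926 times. The part of free choroid plexus RNA in the Ttr value was not tested. Ptgds, a prostaglandin synthase gene of meninges, was at 44.3, 71.2, 5.44 and 16.8 CPM, higher in batch 1 and, within each batch, in Tbx1+/-. All 7 meningeal markers were higher in Tbx1+/- on the fitted scale, with a median log2 fold change of 0.23. Of all 17091 genes tested, 8731 were higher. Xist, the RNA of the inactive X chromosome in females, was at 448, 533, 1062 and 1248 CPM, higher in batch 2.

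When the batch 1 WT library was left out, edgeR called 39 of 17717 genes (0.22%), 35 higher and 4 lower in Tbx1+/-. This left 1 WT library, of batch 2, against Tbx1+/- libraries of both batches. Ptgds, at a log2 fold change of 2.99, and Ttr, at 1.59, were among the 39. Of the 39 genes, 34 were higher in both batch 1 libraries than in both batch 2 libraries, as were 6336 (35.8%) of the 17687 tested genes with a unique symbol. The 39 held 4 of the 13 mitochondrially encoded genes tested, 4 of 61 ribosomal protein genes and 7 of 58 histone genes. With this library left out, batch and genotype were no longer balanced, and the part of the batch in these calls was not tested.

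The last question was whether the genotype difference in CGNs differed from that in GNPs of the same libraries. With edgeR's quasi-likelihood test of the difference between types, 0 of 17287 genes (0%) passed a Benjamini-Hochberg adjusted p under 0.05, and 493 had an unadjusted p under 0.05. DESeq2 was not run on this comparison. The smallest adjusted p was that of Cntn5 (chr9:9660891-10904775, minus strand), a contactin adhesion gene of synapse formation. Cntn5 was at 380.0, 388, 477 and 474 CPM in CGNs, where both genotypes of a batch were nearly equal. In GNPs it was at 29.7, 16.7, 47.9 and 26.3 CPM, lower in Tbx1+/- than in WT in each batch. The log2 difference between the types was 0.84 (SE 0.14, 95% interval 0.54 to 1.14, adjusted p = 0.184 in edgeR), while the genotype difference in CGNs alone was 0.03 (SE 0.22).

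With the replicate number, taken as the batch, as a block, 11 of 17287 genes (0.0636%) passed, 8 higher and 3 lower in CGNs relative to GNPs. The adjusted p of Cntn5 was then 1.62e-08 and that of Galntl6 0.0218, in edgeR. This fit left 1 residual degree of freedom per gene, so these p-values rest mostly on a spread shared over genes. Galntl6, Nebl and Kcnip4, genes with much higher levels in CGNs than in GNPs, were among the 8. Galntl6 was at 154, 128, 170.2 and 150.3 CPM, Nebl at 34.7, 26.4, 36.6 and 26.8 CPM and Kcnip4 at 239.8, 211, 298 and 194 CPM in GNPs, each lower in Tbx1+/- in both batches. Thsd7b, Pcdh7, a protocadherin gene, Chn2 and Nfe2l3 were also higher. The 3 lower genes were Bcl11b, a zinc finger factor gene, the globin gene Hbb-bs and Mast1. Of the 15 genes that led CGNs over GNPs, 13 in batch 1 and 7 in batch 2 had lower CPM in Tbx1+/- than in WT GNPs, 6 of them in both. The share of all genes lower in Tbx1+/- GNPs was not counted. The part of CGN-like nuclei or free CGN RNA within the GNP class in these values was not tested. In CGNs themselves the same 15 genes were lower in Tbx1+/- in 6 cases in batch 1 and 11 in batch 2.

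**Figure D5:**
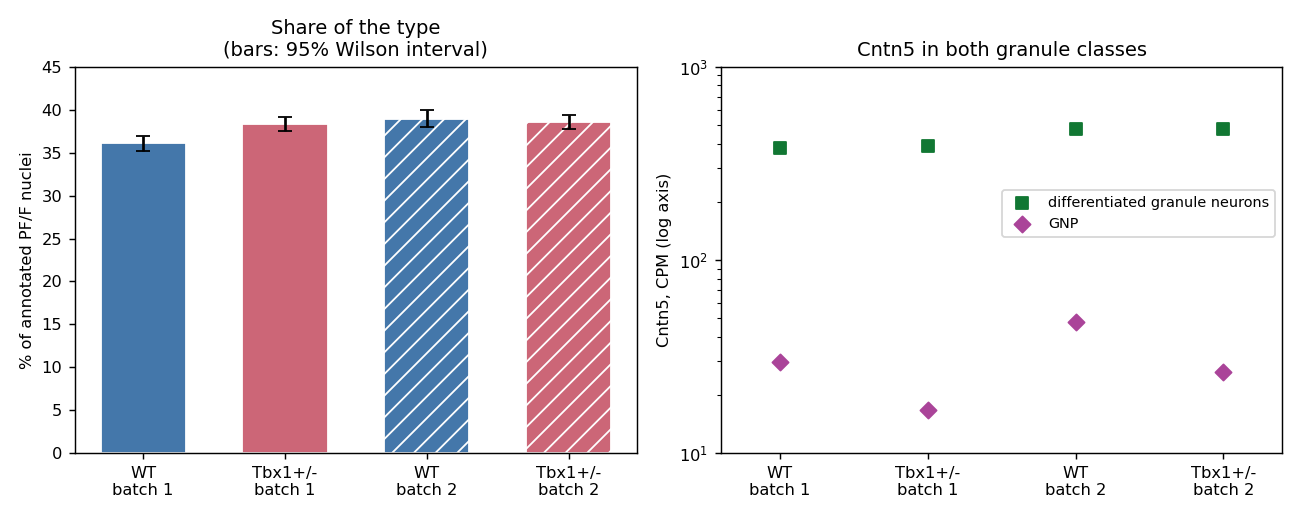
Left, share of differentiated granule neurons among annotated PF/F nuclei in percent for each of the 4 libraries, with 95% Wilson intervals as bars; right, Cntn5 in CPM on a log axis in differentiated granule neurons and GNPs of each library. Shares ran from 36.1% to 38.9%, and Cntn5 in GNPs was lower in Tbx1+/- than in WT within each batch, whereas in differentiated granule neurons it stood at 380 and 388 CPM in batch 1 and at 477 and 474 CPM in batch 2.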

How the data were processed

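Nuclei were isolated from pooled frozen PF/F of 5 mice per library and 3′ ends of their RNA were sequenced in droplets. The authors ran Cell Ranger 7.0.0 (per the submitters' processing notes) in intron mode on mm10 and deposited the resulting UMI counts, whole numbers for each gene in each barcode. These precede the authors' filters and SoupX correction. Cell types and UMAP coordinates (a score with no fixed unit) are those of the deposited annotation. It also holds expected counts per nucleus after SoupX, deposited by the authors and used here only for their ratio to the raw counts, 0.751 to 0.818 in CGNs. SoupX was not repeated. No doublet removal is described, and leaving out the 8% of nuclei highest in UMIs in each library served as an alternative.

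UMIs were summed per library and type (Python 3.11.15, numpy 2.4.6, scipy 1.17.1, pandas 2.3.3). Coordinates are from GENCODE vM21 on GRCm38. Genotypes were compared in R 4.3.3 with edgeR 4.0.16 (filterByExpr, TMM, quasi-likelihood test, Benjamini-Hochberg adjustment over all genes) without a batch term. The difference between types was fitted on CGN and GNP sums with library as a term. DESeq2 1.42.0, RLE factors, no filter on low counts, nuclei with at least 2000 genes, a replicate block and leaving out each library were alternatives. Nuclei per type were tested likewise with all nuclei as offset at a false discovery rate of 0.1. DCATS was not run here. The scripts were tested on simulated data. The p-values measure the spread between pools. The 2 pools of a genotype were taken as different batches, so without a batch term this spread includes the difference between batches.

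The study describes 2 sets of animals, and libraries with the same replicate number were taken as 1 batch, which neither the methods nor the labels state. Deviations from the genotype means had a correlation of 0.647 over 16109 genes between libraries of a batch, and genes are not independent replicates.

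Named genes are those of 26 lists (365 genes), Tbx1, up to 15 genes per contrast between types at 50 CPM or more with the largest smallest log2 ratio of CPM + 1, and genes called in a test. Some items are not reported here. Genes named for a map region outside these lists, and the map cuts (vertical at 4 and 9, horizontal at 0), were chosen after their values were seen. The members and lists were chosen with earlier results of these data known.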

Additional observations from a re-analysis of the deposited data

How the results depend on the processing

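The genotype comparison in CGNs called 0 genes with RLE factors, no filter, DESeq2, the replicate block, nuclei of at least 2000 genes and without the 8% of nuclei highest in UMIs. Leaving out 1 library gave 0 to 39 calls, 39 without WT replicate 1 and 1, Ttr, without Tbx1+/- replicate 1. The lone library left is then assumed to vary like the other group. Pairing by batch raised the genes at an unadjusted p under 0.05 from 106 to 671, with a smallest adjusted p of 0.140 in edgeR. These 671 were 3.93% of the 17091 genes tested, 367 higher and 304 lower in Tbx1+/-. Of the lists on granule neuron biology, each held 0 to 3 such genes higher and 0 to 1 lower. The 3 higher were in adhesion and guidance (30 tested), mature granule neuron (16), glutamate receptor (23) and G2/M genes (52). Whether any list held more of them than all genes did was not tested. For the difference between CGNs and GNPs, calls rose from 0 to 1 with RLE factors, to 4 without the filter and to 11 with the replicate block, and ran from 0 to 12 when a library was left out. Cntn5 passed in 4 of 9 alternatives, with log2 values of 0.85 (RLE factors), 0.85 (no filter), 0.84 (replicate block) and 1.02 (without WT replicate 1). The cause was not tested.

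The difference in nuclei was -0.011 with TMM factors, -0.078 in nuclei of at least 2000 genes and -0.019 to 0.090 on leaving out a library, and none passed. Neurod1 fell from 159 to 133 CPM in nuclei of at least 2000 genes, where its genotype difference was -0.021. On leaving out a library the genotype difference ran from -0.090 to 0.14 for Neurod1, -0.087 to 0.34 for Galntl6, -0.15 to 0.23 for Cntn5, -0.53 to 2.99 for Ptgds, 0.26 to 0.84 for Bdnf (0.26 without Tbx1+/- replicate 2) and 0.75 to 2.05 for Ttr. With 2 pools per genotype, the intervals of single genes span large changes, and at the depth of these libraries Tbx1 could not be compared.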
